A study of Mus musculus with 2 samples.

Results

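The angiogenin ribonucleases are small secreted enzymes of the RNase A superfamily, and 5 of their mouse genes were followed here: Ang, Ang2, Ang4, Rnase4 and Rnase1. They were chosen by symbol, and the set was proposed with the array ratios already known to place Ang, Ang2 and Ang4 among the highest of the study, so those ratios are given as a description. Each probe was matched through its transcript accession, which gave 7 of the 41174 probes and 5 of the 31993 genes on the array. An accession that matched no symbol was counted as a gene of its own, here and in all counts over detected genes. Ang, Ang2 and Ang4 had 1 probe each, and Rnase4 and Rnase1 had 2 each. Each of the 7 gave a signal scored as well above background for each pool on each array.

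The study compared 2 RNA pools of mouse ventral prostate on 2-colour Agilent arrays. The transgenic pool held RNA of 6 mice that carry ARR2PB-miR32, in which a composite probasin promoter drives the microRNA miR-32 in prostate epithelium, and the wild-type pool held RNA of 6 mice without it. All mice were 6 months old and of the FVB/N strain, which the labels also spell FBV/N. The same pair of pools was hybridised again with the dyes swapped, so the transgenic pool was in Cy3 (green) on array 1 and in Cy5 (red) on array 2. Each genotype thus had 1 replicate, and no test between mice was possible. The SD given with a value is that of the 2 technical arrays (n = 2). The labels do not say how many transgenic founder lines the mice came from, and one of their texts names ventral or dorsolateral prostates while the tissue field gives ventral prostate. In pooled whole tissue, a change in the share of expressing cells and a change in RNA per cell cannot be told apart.

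RNase A enzymes cleave single-stranded RNA after pyrimidines, and most mouse genes of the superfamily lie together on chromosome 14. Angiogenin, the product of Ang, is a weak ribonuclease that induces blood vessel growth, enters the nucleus to act on ribosomal RNA transcription and cuts tRNA under stress. In people it has been studied in the prostate among other tissues. Ang4 is a microbicidal protein of intestinal Paneth and goblet cells in the mouse. Ang2 encodes the angiogenin-related protein, a ribonuclease without the vessel-inducing activity, and is not angiopoietin-2, whose gene is Angpt2. Rnase4 prefers uridine and shares noncoding first exons and promoters with Ang. Rnase1 is the pancreatic-type ribonuclease, abundant in secretions.

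The sequences below show what distinguishes the pools and where transcription of the members is annotated to start. The microRNA carried by the transgene has the following mature sequence in RefSeq (GRCm38.p6, minus strand of chromosome 4), with its seed in capitals.
mmu-miR-32-5p: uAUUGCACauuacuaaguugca

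RefSeq (GRCm38.p6) gave 4 different start windows for 4 of the 5 genes, each of 300 bases, from 250 bases before the annotated start to 50 after it. Ang and Rnase4 had 1 window in common, at chr14:51090827-51091126 on the plus strand, and it is printed because both genes are annotated to start there while their ratios differed. Capitals mark its only motif match, a GC box on the opposite strand.
Ang and Rnase4, shared start: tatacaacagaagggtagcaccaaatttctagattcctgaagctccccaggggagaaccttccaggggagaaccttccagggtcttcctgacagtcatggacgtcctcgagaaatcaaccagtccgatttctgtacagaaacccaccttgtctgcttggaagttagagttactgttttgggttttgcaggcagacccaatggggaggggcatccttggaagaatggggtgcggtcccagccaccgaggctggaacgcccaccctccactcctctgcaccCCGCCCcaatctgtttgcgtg

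The downstream start of Rnase4 (chr14:51095750-51096049, plus strand) and the start of Ang4 (chr14:51773541-51773840, minus strand) are printed because they resembled each other. Capitals mark the stretch that aligned, 43 identical bases in 55 alignment columns, or 78.2%.
Rnase4, downstream start: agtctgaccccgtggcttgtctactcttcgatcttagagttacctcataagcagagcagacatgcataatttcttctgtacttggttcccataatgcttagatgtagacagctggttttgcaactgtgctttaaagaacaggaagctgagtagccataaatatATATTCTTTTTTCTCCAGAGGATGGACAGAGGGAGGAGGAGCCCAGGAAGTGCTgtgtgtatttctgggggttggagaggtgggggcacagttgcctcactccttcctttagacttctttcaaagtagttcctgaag
Ang4 start: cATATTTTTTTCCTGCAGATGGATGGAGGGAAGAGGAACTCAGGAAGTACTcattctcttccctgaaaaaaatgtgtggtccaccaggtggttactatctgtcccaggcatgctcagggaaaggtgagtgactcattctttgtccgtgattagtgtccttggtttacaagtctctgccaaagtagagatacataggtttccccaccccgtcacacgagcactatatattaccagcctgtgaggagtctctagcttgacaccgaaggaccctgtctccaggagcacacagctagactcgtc

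Among 32816 other annotated mouse windows of the same length, that of Ang4 had the highest local alignment score with the downstream window of Rnase4, ahead of Ang5 and Ang6. The Ang4 window in turn was closest to those of Ang5 and Ang6, at 84.2% identity over 304 columns each, and the downstream Rnase4 window was at place 3. The shared start of Ang and Rnase4 resembled the Ang4 window little, with 14 identical bases in 17 columns, at place 27053 of 32816. The GC box GGGCGG, searched on both strands, was in 2 of the 4 windows, the shared one and that of Rnase1, and in 35.6% of all 32817 windows. The FOXA motif TGTTTAC (3.65% of all windows) and the TATA box TATAAA (13.6%) were in 0 of the 4 on either strand.

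Red signal relative to green changed with position on the arrays, which bears on single-array values of the members. Between the first 100 rows and the rows from 451 on, the median log2 of background-subtracted red over green went from -1.10 to -2.15 on array 1 and from -1.65 to -2.16 on array 2. Normalisation by intensity alone does not remove such a trend, while the ratios deposited from Feature Extraction showed medians between -0.08 and 0.12 in every band of rows. Values after removal of a smooth trend over row and column are therefore given beside the main ones. The green background was 26 on both arrays, and the red background 112.5 on array 1 and 116 on array 2 (medians over spots).

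**Figure D1:**
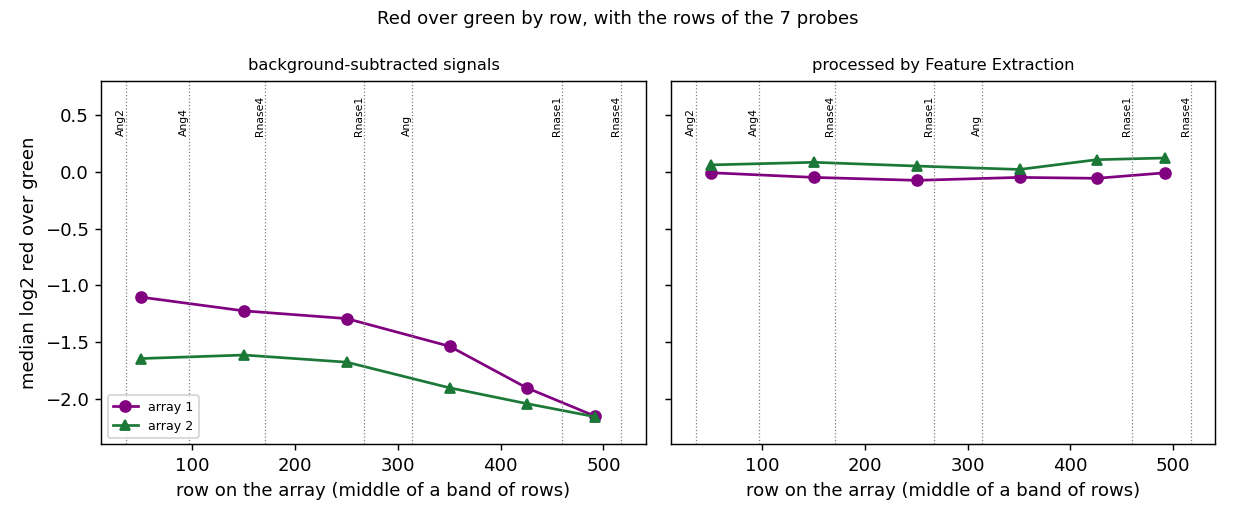
Median log2 of red over green (vertical axis) for spots well above background in both dyes, in bands of rows on each array (horizontal axis, middle of the band), from background-subtracted signals at the left and after Feature Extraction's processing at the right. Dotted lines mark the rows of the 7 probes. Red over green falls towards the last rows, where probes of Rnase1 (row 460) and Rnase4 (row 517) lie, and is level after Feature Extraction.

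Ang, Ang2 and Ang4 were higher in the transgenic pool, by 9.93-fold, 7.21-fold and 12.03-fold, while Rnase4 and Rnase1 did not pass the rule for a difference. To pass, the log2 ratio had to average 1 or more in size, and both arrays had to show 1.5-fold or more with the same sign. By it 3 of the 5 members were higher and 0 lower, beside 152 of 13932 detected genes higher (1.09%) and 490 lower (3.52%). Since the members were proposed from this contrast, nothing is read from that count. Among the 13932 detected genes ranked from the highest ratio, Ang4 stood at place 3, Ang at 6 and Ang2 at 13, with Rnase4 at 1042 and Rnase1 at 5248.

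Ang, the gene of angiogenin itself, gave a net signal (median pixel value less local background) of 2735 in the transgenic pool against 72 in the wild-type pool on array 1. On array 2, with the dyes exchanged, the net signals were 935.5 and 185. The wild-type signal was close to the red background of 107 on array 1, though scored as well above it on both arrays. After normalisation the log2 intensity was 10.96 and 10.62 in the transgenic pool and 7.80 and 7.15 in the wild-type pool. Both transgenic values lay over 2 log2 units above both wild-type values. The log2 ratio was 3.16 on array 1 and 3.47 on array 2, with a mean of 3.31 ± 0.22. The authors' deposited ratios from Feature Extraction were larger for this dim wild-type signal, at 4.04 and 4.25, or 17.7-fold on average, and its error model gave them errors of 0.43 and 0.45. Without the row and column trend the ratio was 3.02 and 3.54.

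Ang4, the microbicidal angiogenin of the gut, was the brightest probe of the set in the transgenic pool, which for different probes says nothing about relative transcript number. Its net signal was 14958 in the transgenic pool and 507.5 in the wild-type pool on array 1, and 6417 and 1270.5 on array 2. The wild-type pool thus had a clear Ang4 signal in both dyes. The normalised log2 intensity was 13.28 and 13.35 in the transgenic pool, against 9.92 and 9.53 in the wild-type pool. The log2 ratio was 3.36 and 3.82, with a mean of 3.59 ± 0.32, and 3.59 and 3.90 by the deposited ratios. Its array mean ran from 3.56 without background subtraction to 3.75 by the deposited ratios.

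Ang2, the gene of the angiogenin-related protein, had net signals of 1492 in the transgenic pool and 68 in the wild-type pool on array 1, and 665.5 and 134 on array 2. Its normalised log2 intensity was 10.14 and 10.13 in the transgenic pool, against 7.72 and 6.85 in the wild-type pool. The log2 ratio was 2.42 and 3.28, with a mean of 2.85 ± 0.61, so the arrays differed more than for Ang or Ang4. With the position trend removed the arrays gave 2.62 and 3.19. The deposited ratios were 3.74 and 4.24, or 15.9-fold on average.

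The order of the 3 genes was not settled. By the main values it was Ang4, Ang, Ang2, and by the deposited ratios Ang (4.14 ± 0.14), Ang2 (3.99 ± 0.35), Ang4 (3.75 ± 0.22), while the 2 arrays of 1 probe differed by similar amounts. The angiogenin genes are close paralogs, and the probe sequences were not used here, so how much of each signal comes from another family member was not tested. Ang5 and Ang6, whose start windows are the most like that of Ang4, had no probe under their accessions.

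**Figure D2:**
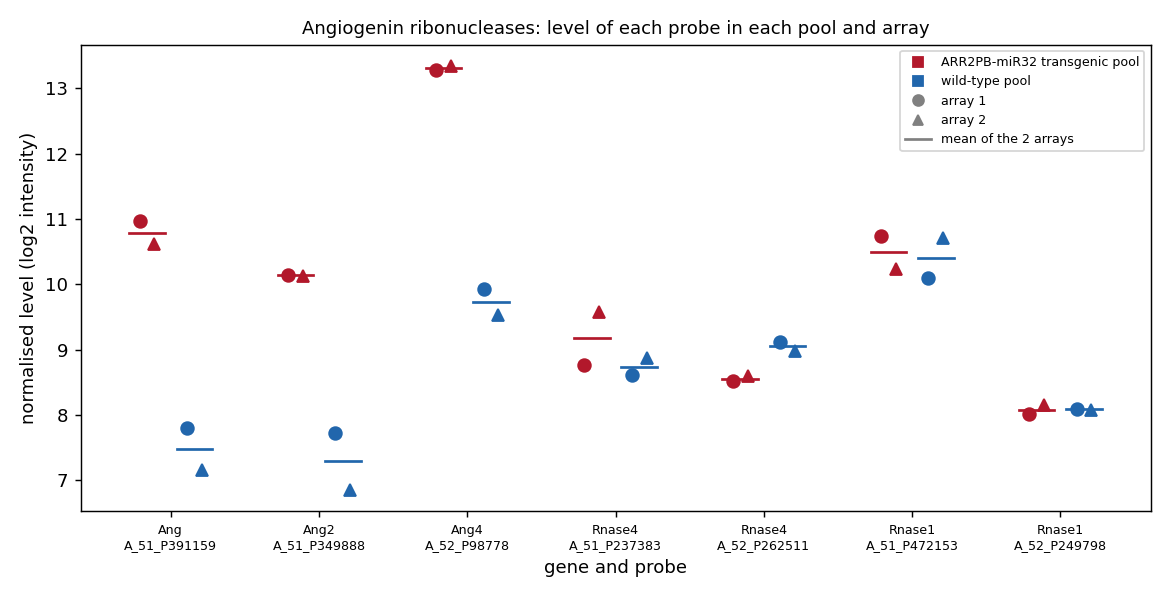
Normalised log2 intensity (vertical axis) of each of the 7 probes (horizontal axis) in the transgenic pool (red) and the wild-type pool (blue), with circles for array 1, triangles for array 2 and a line at the mean of both. The pools do not overlap for Ang, Ang2 and Ang4, while Rnase4 and Rnase1 lie within about 1 log2 unit, and the 2 Rnase4 probes have the pools in opposite order by their means.

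Rnase4, the uridine-preferring member, did not follow Ang although both are annotated to start at the same place. Its probe A_51_P237383 had log2 intensities of 8.77 and 9.57 in the transgenic pool, against 8.60 and 8.87 in the wild-type pool, with a log2 ratio of 0.43 ± 0.38. Its probe A_52_P262511 had 8.51 and 8.59 in the transgenic pool and 9.12 and 8.98 in the wild-type pool, with a log2 ratio of -0.49 ± 0.15. The probes therefore pointed in opposite directions, and their mean was -0.031.

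The 2 Rnase4 probes also differed in how well the dye-swapped arrays matched. For A_52_P262511 the arrays gave -0.60 and -0.39, then -0.50 and -0.49 once the position trend was removed, and -0.57 and -0.63 by the deposited ratios. For A_51_P237383, in row 517, they gave 0.17 and 0.70, but -0.63 and 1.02 without the trend and -0.80 and 1.502 by the deposited ratios. In both of the last forms that probe read higher in the red channel on each array, whichever pool was red, so its array mean is a balance of opposite values. No direction is given for Rnase4. Whichever probe is taken, Ang exceeded it within each array: the log2 ratio of Ang minus that of A_51_P237383 was 2.99 and 2.77, and minus that of A_52_P262511 it was 3.76 and 3.85.

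Rnase1, the pancreatic-type enzyme, was nearly level between the pools. Its brighter probe A_51_P472153 had log2 intensities of 10.74 and 10.24 in the transgenic pool, against 10.09 and 10.70 in the wild-type pool, so that the pools changed places between the arrays. The log2 ratio was 0.65 on array 1 and -0.46 on array 2, with a mean of 0.09 ± 0.78. This probe lies in row 460, and with the position trend removed the arrays gave 0.003 and -0.21. The other probe, A_52_P249798 in row 267, had 8.01 and 8.15 in the transgenic pool and 8.10 and 8.08 in the wild-type pool. Its log2 ratio was -0.01 ± 0.11, and 0.06 and 0.04 by the deposited ratios. With 1 pool per genotype these values do not show that Rnase1 is equal in the mice.

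**Figure D3:**
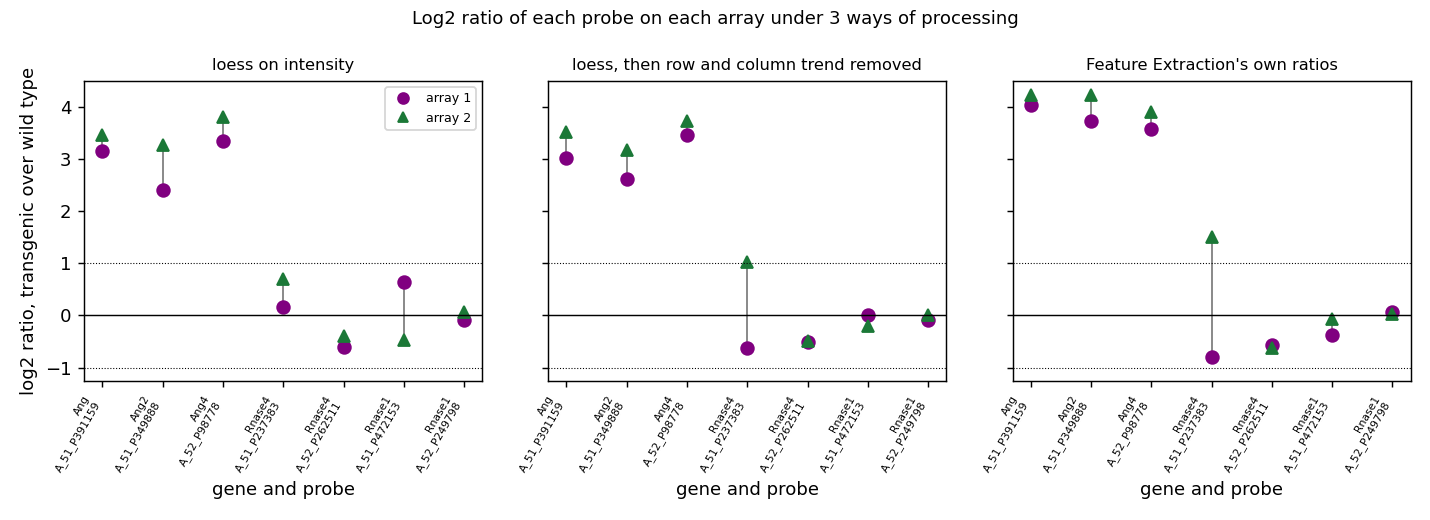
Log2 ratio of transgenic over wild type (vertical axis) of each probe (horizontal axis) on array 1 (circles) and array 2 (triangles), after loess on intensity, after removal of the row and column trend, and as deposited from Feature Extraction. Dotted lines mark ratios of 1 and -1. Ang, Ang2 and Ang4 are above 2.4 on every array and panel, and the arrays differ most for the Rnase4 probe A_51_P237383 in the middle and right panels.

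The rest of the RNase A superfamily was read from 22 listed names, which came to 15 RefSeq genes, of which 8 had a probe and 4 were detected. All 4 detected genes were higher. Ear1, an eosinophil-associated ribonuclease, had a log2 ratio of 2.05 ± 0.55, with Ear10 at 1.41 ± 0.06, Ear6 at 1.33 ± 0.10 and Rnase2a, formerly Ear11, at 1.11 ± 0.01. With the position trend removed, the arrays gave 1.82 and 2.31 for Ear1 and 1.52 and 1.35 for Ear10. They gave 0.64 and 1.58 for Ear6 and 0.56 and 1.41 for Rnase2a, so the small SD of these 2 genes did not hold. The authors' deposited ratios were larger, at 2.96 and 3.84 for Ear1, 4.49 and 3.06 for Ear10, 2.90 and 4.47 for Ear6, and 1.40 and 2.14 for Rnase2a. The median of the 4 genes was 1.37, against 3.54 by the deposited ratios, and the median of all 8 genes with a probe, undetected ones included, was 0.56. In the wild-type pool Ear6 and Ear10 exceeded background clearly on only 1 array. The number called was 3 without the position trend, 2 when detection was required in both pools, 2 in the series table and 1 with a 4-fold minimum. For detection in both pools and for the series table, the genes not called were absent, by the filter or for want of a value. The 4 that were not detected were Rnase2b, Rnase6, a phagocyte enzyme, and the reproductive tract genes Rnase9 and Rnase10. Of these, Rnase6 exceeded background clearly on 1 array in each pool. Its ratios were below 0 on both arrays, at -0.26 and -0.73, and at -2.56 and -2.23 as deposited. Among all detected genes 1.09% were higher and 3.52% lower, but a gene near background in wild type entered the count only through its transgenic signal, so the 4 of 4 is no support for the family as a whole. The eosinophil markers Siglecf, Epx and Il5ra were above background in neither pool on either array, and Prg2 on 1 array in the transgenic pool alone. The Ear genes are close paralogs too, and sharing of signal among them was not tested.

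Other detected genes around the family on chromosome 14 stayed below a log2 ratio of 1. The stretch from the first to the last superfamily gene, with the 10 protein-coding genes on each side, held 137 protein-coding genes, and 45 genes outside the family were detected. Their median log2 ratio was -0.07, from -1.46 to 0.74, with 0 called higher and 1 called lower, the galectin gene Lgals3 at -1.46 ± 0.43. These counts were near the shares over all detected genes, 1.09% higher and 3.52% lower. Upstream of Ang along the chromosome, the nearest detected neighbours were the purine nucleoside phosphorylase Pnp at -0.39 ± 0.10, Pip4p1 at -0.10 ± 0.39 and the DNA repair nuclease Apex1 at 0.47 ± 0.77. Past Ang4 and Ear6, Mettl17 stood at -0.05 ± 0.29 and the zinc transporter Slc39a2 at 0.11 ± 0.34. Between Rnase10 and Ang4 there were 8 protein-coding genes outside the family, of which 4 had a probe and 0 were detected.

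**Figure D4:**
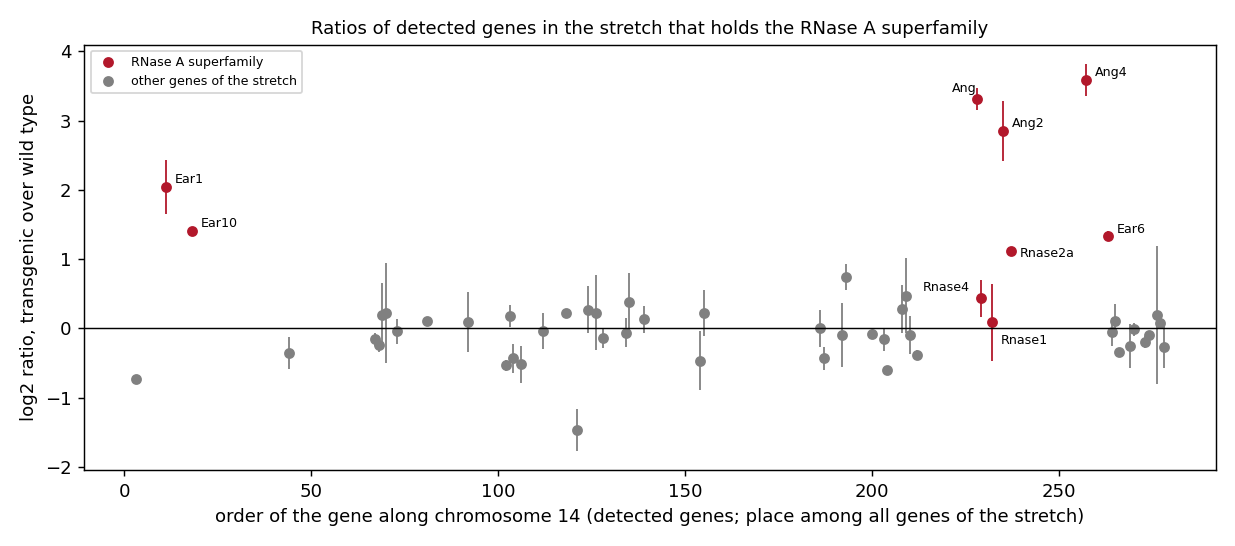
Mean log2 ratio of transgenic over wild type (vertical axis, points, with lines that join the values of the 2 arrays) of the detected genes of the chromosome 14 stretch, in the order of the genes in RefSeq (horizontal axis). Superfamily genes are red and others grey. The red points other than Rnase4 and Rnase1 lie above 1, and the grey points lie below 1.

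Genes listed for reported ties to angiogenin had a median ratio near that of all detected genes. Of 20 listed genes 19 were detected, 1 was called higher and 0 lower, with a median log2 ratio of 0.01 against 0.01 over all detected genes. Over all detected genes 1.09% were called higher and 3.52% lower, so that count is no result about these genes. On both arrays 5 of the 19 were above 0 and 2 were below 0, while the others changed sign between the arrays. Rnh1, the cytosolic inhibitor that binds angiogenin tightly, stood at 0.13 ± 0.001. Plxnb2, a reported cell surface receptor for angiogenin, was at -0.10 ± 0.67, and Egfr, reported as a receptor for angiogenin in human pancreatic cancer, at -0.29 ± 0.17. Of the enzymes whose tRNA methylation protects against cleavage, Trdmt1 was at 0.16 ± 0.46 and Nsun2 at 0.26 ± 0.27. Polr1a, the large subunit of the polymerase that transcribes ribosomal RNA, was at 0.01 ± 0.02. The called gene was Ubtf, a ribosomal RNA transcription factor, at 1.13 ± 0.59, and its other probe gave 0.05.

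Transcription factors listed as candidate regulators of these genes passed the rule in 0 of 9 detected cases, with a median of 0.12. With shares of 1.09% higher and 3.52% lower over all detected genes, that count is no result about these factors. Foxa1, a pioneer factor of prostate epithelium, was at -0.07 ± 0.38 and Ctcf, the chromatin insulator factor, at 0.16 ± 0.57.

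Markers of cells that could carry Ang4 or Rnase1 were set beside the members. For each count of calls, the shares over all detected genes were 1.09% higher and 3.52% lower. All 12 luminal epithelial markers were detected, with 0 called and a median of 0.13, and their summed intensity was 139724 and 168819 in the transgenic pool against 157770 and 133811 in the wild-type pool. Of 23 goblet, Paneth and tuft cell genes other than Ang4, 9 were detected, 3 were higher and 2 lower. The goblet products Tff3 (3.39 ± 0.25), Clca1 (2.02 ± 0.36) and Fcgbp (1.77 ± 0.28) were higher, and the Paneth products Lyz1 (-2.76 ± 0.57) and Mmp7 (-2.44 ± 0.92) lower. The defining markers Muc2, Zg16, Atoh1, Spink4 and Retnlb, and the tuft cell genes Pou2f3 and Trpm5, were not detected. The summed intensity of the 9 genes was 37368 and 30024 in the transgenic pool and 27874 and 44568 in the wild-type pool, with overlap. Most of it came from 1 bright gene that was not called and, in the wild-type pool, also from Lyz1 and Mmp7. The sum therefore does not track Tff3, Clca1 and Fcgbp, and the part of such cells in the Ang4 ratio was not tested. Liver and acinar pancreas markers were nearly all below detection, with 1 of 11 liver genes with a probe (Trf) and 3 of 14 acinar genes with a probe (Ctrb1, Clps and Cel) detected. Clps, the lipase cofactor, was higher at 1.33 ± 0.07. Of 13 endothelial markers 6 were detected, 0 were called and the median was -0.21.

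Lobe markers and leukocyte markers also differed between the pools, and their part in the ratios of the members was not tested. Here too the shares over all detected genes were 1.09% higher and 3.52% lower. Of 8 detected ventral prostate products 5 were lower, with a summed intensity of 337977 and 407425 in the transgenic pool against 1163230 and 1073960 in the wild-type pool. Spink1 was the lowest at -5.88 ± 0.21 and made up much of the fall in that sum. Its log2 intensity was 18.84 and 18.69 in the wild-type pool, the highest of these products, against 12.81 and 12.96 in the transgenic pool. Spink8 was higher at 2.48 ± 0.01, while Azgp1 (0.39 ± 0.27) and Msmb (-0.20 ± 1.11) were not called. Of 6 detected products of other lobes and the seminal vesicle 2 were higher, Tgm4 (2.12 ± 0.14) and Sval1 (2.43 ± 0.20), and Ceacam10 was lower (-2.60 ± 0.36). Their summed intensity overlapped between pools, at 165823 and 255166 in the transgenic and 292910 and 190433 in the wild-type pool. Nearly all of that sum came from 2 bright genes that were not called, so it does not track Tgm4, Sval1 or Ceacam10. The seminal vesicle genes Svs2, Svs3a, Svs4, Svs5 and Svs6 were not detected. Of 13 detected leukocyte markers 8 were lower, with a summed intensity of 2037 and 2668 in the transgenic pool and 9876 and 11377 in the wild-type pool. When detection was required in both pools, 6 of the 13 remained, with a median of -1.66. The others entered the count only through their wild-type signal.

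Ang4 went against most other secreted antimicrobial proteins. Of 18 detected genes of that list, Ang4 included, 12 were lower and 2 higher, with a median of -2.28. The shares over all detected genes were 3.52% lower and 1.09% higher. The higher genes were Ang4 and the beta-defensin Defb29 (3.30 ± 0.41), whose wild-type signal was well above background on 1 array. Among the lower genes were lactoferrin (Ltf, -3.90 ± 0.56), the lectin Reg3g (-3.71 ± 0.50), lipocalin 2 (Lcn2, -3.53 ± 0.39) and the peptidoglycan recognition protein Pglyrp1 (-2.86 ± 0.58). In the transgenic pool, Reg3g exceeded background clearly on 1 array. When detection was required in both pools, 13 of the 18 remained, with a median of -2.76. The others entered the count through 1 pool only, which was the transgenic pool for Defb29 and the wild-type pool for the rest.

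**Figure D5:**
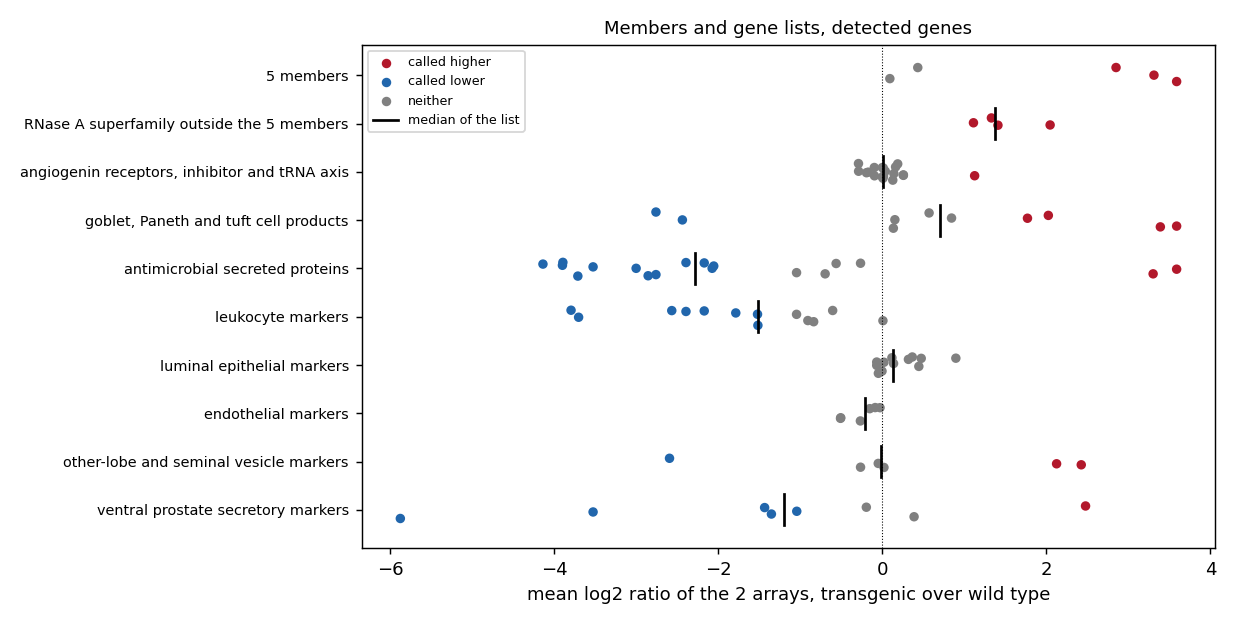
Mean log2 ratio of transgenic over wild type (horizontal axis) of each detected gene of the 5 members and of 9 gene lists (rows), with genes called higher in red, lower in blue and neither in grey, and a line at the median of each of the 9 lists. The superfamily list lies above 1, the antimicrobial and leukocyte lists have medians of -2.28 and -1.52, and the angiogenin axis lies near 0 apart from Ubtf.

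Outside the family, the 5 named genes whose pair of array ratios lay nearest to that of Ang were Defb29, Scgb2b20, Tff3, Arg1 and Fxyd4. Likeness was the straight-line distance over the 2 arrays, so it rests on 1 pair of pools. Defb29 lay 0.20 log2 units away, with 3.01 and 3.59, and the secretoglobin Scgb2b20 0.21 away, with 2.98 and 3.59. Tff3 (0.48), Arg1 (0.49) and the sodium pump regulator Fxyd4 (0.55) followed, while within the family Ang4 and Ang2 were not eligible for this list.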

How the data were processed

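Per the file headers, the scans were quantified in Feature Extraction 11.0.1.1 and positions refer to mm9. The deposited files hold spot and background intensity per dye with no normalization, processed intensity that the software background-subtracted and dye-normalized, its log10 ratio of red over green and flags for signal above background. The deposited series table holds log2 ratios of 15511 probes. They equalled the turned Feature Extraction ratios after constants of -0.08 and -0.05. Per the labels' protocols, 100 ng of Trizol-extracted RNA was labelled.

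Median spot signals were background-corrected by normexp (offset 50) and normalised by loess within arrays, with limma 3.58.1 in R 4.3.3, controls and outlier spots at weight 0. Ratios were turned to transgenic over wild type and averaged. Levels per pool came from these ratios after Aquantile normalisation. Detection required that 1 probe of a gene exceed background clearly on both arrays for at least 1 pool, and its brightest such probe stood for it. Symbols came from the RefSeq table of GRCm38.p6, which matched 27816 of 41174 probes. That build differs from the files' build, so it gave names, gene order and start sequences. The 13358 probes without a symbol were counted by accession, so 1 locus could be counted more than once. Of the 13932 detected genes 10983 had a symbol. Shares and ranks over all detected genes rest on this mixed unit, while the gene lists hold only genes with a symbol. Some genes and motifs are not reported here. Motifs were counted and windows aligned with Biopython 1.88. The ratio calculation was tested on simulated data, with known ratios set only on probes of higher mean intensity. The simulated arrays had constant backgrounds and no trend over position, so that test does not bear on the position trend.

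Members and gene lists were chosen with earlier results of these data known. Named genes were the members, all detected genes of the superfamily and examples of the angiogenin list, list members and neighbours past the rule, and the 5 nearest to Ang. Other genes named with values below the rule were picked for their known roles or place beside the family. The arrays are technical replicates, so no p-value is given.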

Additional observations from a re-analysis of the deposited data

How the results depend on the processing

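Ang, Ang2 and Ang4 were above 0 and called higher under all 11 alternatives, single arrays included, with ranges of 3.16 to 4.14, 2.42 to 3.99 and 3.36 to 3.82. Each had 1 probe, detected in both pools, so some alternatives could not change its value. Those were the mean of all detected probes, detection in both pools and no filter on dim probes. The series table repeats Feature Extraction's ratios after a constant, so it is not a separate check. On a single array the rule was a log2 ratio of 1 or more in size on that array alone. The count of members called higher was 3 under each alternative, also with a 1.5-fold or a 4-fold minimum of the mean. Ratios moved by more than the technical SD with Feature Extraction's ratios (Ang 4.14, Ang2 3.99), in the series table (Ang 4.08, Ang2 3.92) and with a normexp offset of 0 (Ang 3.77), an alternative added after the data were seen, as was the removal of the position trend. Rnase4 went to -0.031 with the mean of its probes. Rnase1 ran from -0.46 to 0.65, above 0 in 7 of 11, and was called in none (0). Counts over all genes moved more, from 152 higher to 312 with Feature Extraction's ratios, 99 under median centring, 252 and 32 with means of at least 1.5-fold and 4-fold, and 272 to 451 on single arrays. Lower genes numbered 490, against 937 with Feature Extraction's ratios, 769 with offset 0, 266 with detection in both pools, and 762 and 166 with means of at least 1.5-fold and 4-fold. Of the 4 higher superfamily genes 2 were called with detection in both pools, 2 in the series table and 1 at 4-fold. In the first 2 of these settings the other genes were absent, by the filter or for want of a value. The median of the superfamily list ran from 0.56 to 3.54. The medians of the marker lists moved beyond their technical SD in some alternatives, for the goblet, Paneth and tuft list with Ang4 included (10 detected genes) between 0.09 and 1.43 and for leukocytes between -2.67 and -0.87, with no change of sign in either, while those of the other-lobe list (-0.34 to 0.41), near 0 at the outset, and of the angiogenesis factors (-0.14 to 0.13) did change sign. The cause of these shifts was not tested. On array 1 the net wild-type signals of Ang (72) and Ang2 (68) were below the red background beside them (107 and 106).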

Other observations

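Secreted and lysosomal nucleases of other families had log2 ratios between -0.70 and 0.15 where detected. Of 11 such genes 4 were detected and 0 were called. Since 1.09% of all detected genes were called higher and 3.52% lower, that count is no result about these nucleases. Dnase1l3, a DNase of macrophages and dendritic cells, stood at -0.70 ± 0.07 and Rnaset2b, a lysosomal ribonuclease, at -0.01 ± 0.30. Of 12 detected angiogenesis factors 1 was called, Angpt2 (angiopoietin-2), higher at 1.55 ± 0.59, while Vegfa stood at 0.78 ± 0.06 and the median was 0.06.

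Over the 13932 detected genes, which share the same hybridisations, the array ratios correlated at Pearson r = 0.513 and Spearman rho = 0.157 after loess on intensity, 0.681 and 0.387 after the position trend was removed, and 0.743 and 0.465 as deposited by Feature Extraction. These figures are a description of 2 hybridisations of the same pools.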
